A study of Mus musculus with 2 samples.

Results

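The core genes of the circadian clock, Arntl, Clock, Per1, Per2, Per3, Cry1, Cry2, Nr1d1, Nr1d2 and Dbp, were examined in the mouse microglial cell line BV2 cultured in DMEM or in DMEM/F12. They were taken by gene symbol from the platform's annotation, by a rule that uses no measured value but was set with earlier results of these data known, and all 10 were measured among 19938 genes. BV2 is an immortalized line of mouse microglia, the macrophages that reside in the brain. In the study, cells of both groups were plated in DMEM/F12 with serum, the medium was exchanged on the next day for DMEM, the standard medium, or for fresh DMEM/F12, a richer medium, and total RNA was extracted after a further day. Each medium had 1 Affymetrix Mouse Gene 1.0 ST array, and each clock gene had 1 transcript cluster, a group of probes that together measure a gene. The values are log2 expression values as deposited, and differences are given as DMEM/F12 minus DMEM on that scale. There were no replicates, so no significance test was possible, and every difference describes these 2 arrays. The sources used here do not state the hour of RNA extraction, and a single time point gives levels, not a rhythm. In a bulk RNA sample, fewer cells that express a gene and less RNA per cell cannot be told apart.

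The circadian clock is a feedback loop of transcription that runs in most cells of the body, microglia and other macrophages included. ARNTL (also called BMAL1) and CLOCK pair on DNA motifs called E-boxes and activate the Period and Cryptochrome genes, whose proteins return to the nucleus and repress their own activators. In a second loop the nuclear receptors REV-ERBα (Nr1d1) and REV-ERBβ (Nr1d2) repress Arntl through ROR elements, and the factor DBP carries the rhythm to other genes through D-boxes. In macrophages the clock is known for the daily timing of inflammatory genes.

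The promoter sequences of the clock genes are shown first, because these motifs define the loops by which the results are ordered. RefSeq windows of 300 bases around the start sites (250 before, 50 after; build GRCm38.p6) were found for 9 of the 10 genes, with 13 windows in all. Per2 had none. The motifs searched on both strands were the E-box CACGTG, the E′-box CACGTT, the D-box TTANGTAA, the cyclic AMP response element TGACGTCA and the ROR element by its consensus. The Per3 promoter was the only one of the 13 windows with a D-box, and it held 2 of them, 205 and 158 bases before the start site. Over all 32851 RefSeq windows, 2.32% held a D-box. The 250 bases before the Per3 start site (chr4:151044666-151044915, minus strand) are printed 5′ to 3′ with both D-boxes in capitals.
Per3: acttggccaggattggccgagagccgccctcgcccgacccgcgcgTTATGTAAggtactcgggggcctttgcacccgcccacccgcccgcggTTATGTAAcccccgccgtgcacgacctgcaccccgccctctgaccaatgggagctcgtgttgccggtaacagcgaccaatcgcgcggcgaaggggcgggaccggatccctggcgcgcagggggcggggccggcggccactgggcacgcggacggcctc

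E-boxes were found in Cry1 and in 1 of the 2 windows of Per1, against 7.15% of all windows. E′-boxes were found in Cry1, Cry2 and Nr1d1, against 4.68% of all windows, each on the strand opposite to the gene so that it reads AACGTG. A ROR element was found in 1 of the 2 windows of Arntl, 27 bases after the start site, against 0.384% of all windows. The windows of Clock, Nr1d2 and Dbp held none of the motifs, no window of a clock gene held the cyclic AMP response element (1.79% of all windows), and no motif overlapped another. Such a match describes sequence only. The stretches of 30 bases around the matches follow, with the motif in capitals, for the E-box of Per1 (chr11:69098771-69098800, plus strand), the E-box of Cry1 (chr10:85185097-85185126, minus strand), the E′-boxes of Cry1 (chr10:85185116-85185145, minus strand), Cry2 (chr2:92434218-92434247, minus strand) and Nr1d1 (chr11:98775388-98775417, minus strand), and the ROR element of Arntl (chr7:113207528-113207557, plus strand).
Per1 E-box: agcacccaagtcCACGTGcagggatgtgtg
Cry1 E-box: ggtgccggtggtCACGTGgggtgcatgccg
Cry1 E′-box: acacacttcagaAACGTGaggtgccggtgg
Cry2 E′-box: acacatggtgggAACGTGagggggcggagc
Nr1d1 E′-box: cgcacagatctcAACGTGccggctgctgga
Arntl ROR element: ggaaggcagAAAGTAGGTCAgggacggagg

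**Figure D1:**
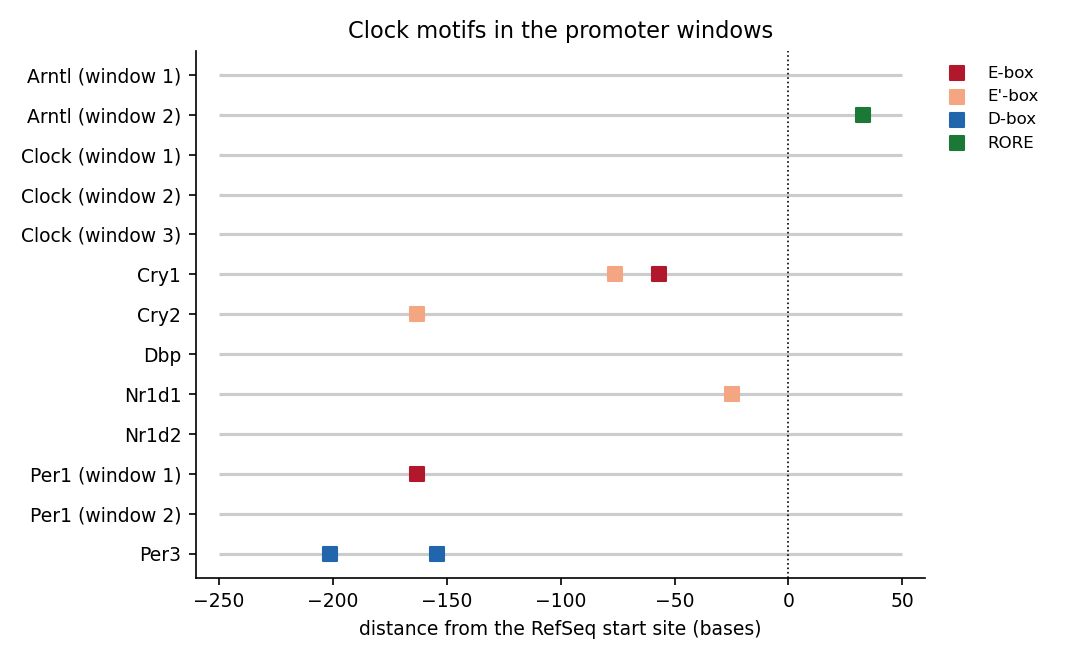
Positions of motifs (squares, coloured by motif) in the 13 RefSeq promoter windows of 9 clock genes (rows; several windows of a gene are numbered by coordinate). The x axis is the distance from the start site in bases, from 250 before to 50 after; the D-boxes lie in Per3 and the ROR element in the second Arntl window.

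All 10 clock genes were above background on both arrays, and none differed by 1.5-fold between the media. Background was set by 1243 clusters of sensory receptor genes (olfactory, vomeronasal and taste), whose 95th percentile was 4.15 on the DMEM array and 4.17 on the DMEM/F12 array. The clock genes lay from 0.77 (Per3) to 2.74 (Per1) above it in DMEM and from 1.09 (Per3) to 2.94 (Per1) in DMEM/F12. In DMEM/F12, 5 of the 10 were higher, 4 were lower and Per2 was equal, where 47.2% of all genes were higher and 45.5% lower. The median difference was 0.08, against 0.00 over all genes. At least 1.2-fold (0.26 on the log2 scale) separated the arrays for 3 of the 10 genes. Nr1d2 and Per3 were higher in DMEM/F12, where 11.2% of all genes were past this limit, and Cry2 was lower, where 10.5% were. In either direction 21.7% of all genes and 17.9% of the 12545 genes above background on both arrays were past it, and 1.66% of all genes were past 1.5-fold. With 10 genes, a count of 3 is close to this background.

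**Figure D2:**
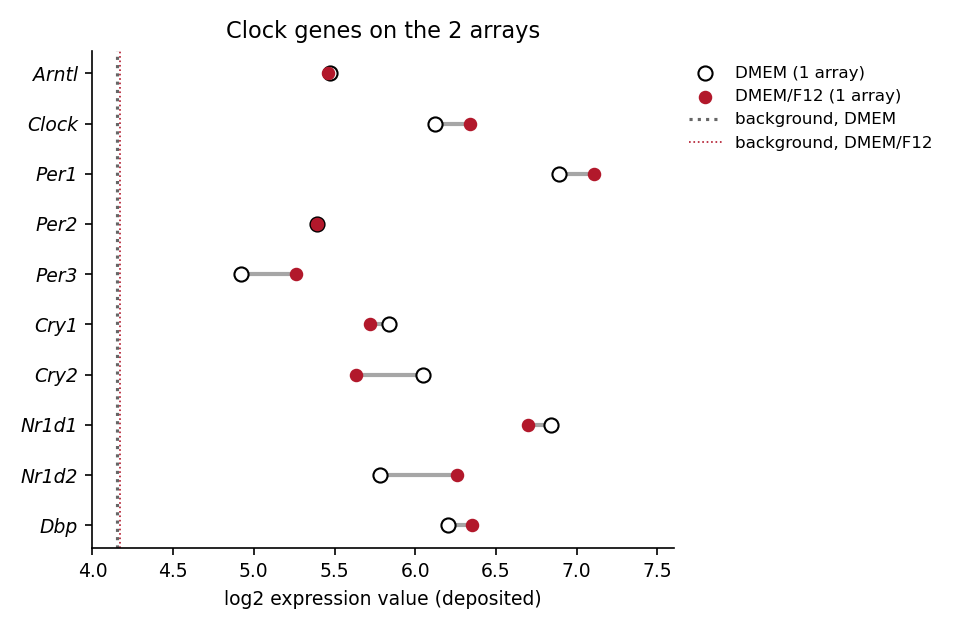
Deposited log2 expression value (x axis) of each clock gene (y axis) in DMEM (open circles) and DMEM/F12 (red dots), 1 array each, with a gray bar between the 2 values. Dotted lines mark background on each array at 4.15 and 4.17; all values lie to the right of them, and the longest bars are those of Nr1d2, Cry2 and Per3.

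The activators were close between the media. Arntl, which encodes BMAL1, had a value of 5.47 on the log2 scale in DMEM against 5.46 in DMEM/F12 (cluster 10556463), a difference of -0.01 that is within the last decimal of the deposited values. Its partner Clock had 6.12 in DMEM against 6.34 in DMEM/F12 (cluster 10530733). The difference of 0.22 (1.16-fold) lay at the 85.1st percentile of the differences of all genes, inside the 1.2-fold limit. Neither gene of the activating pair therefore stood outside the bulk of the genes, whose central 95% ran from -0.45 to 0.46.

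The Period genes, which encode repressors of the CLOCK and BMAL1 pair, were equal or higher in DMEM/F12. Per1, which responds within hours to signals that reset the clock, had 6.89 in DMEM against 7.11 in DMEM/F12 (cluster 10377439). Its difference of 0.22 matched that of Clock. Per2, a core repressor needed for a stable rhythm, had 5.39 in both media (cluster 10356601). Per3, the Period gene with the weakest known part in the rhythm itself and the gene with the pair of D-boxes printed above, had 4.92 in DMEM against 5.26 in DMEM/F12 (cluster 10518781). That difference of 0.34 (1.27-fold) was at the 93.6th percentile, and Per3 was also the clock gene nearest to background. The differences of Per2 and Per3 were 0.34 apart, and those of Per1 and Per3 0.12 apart.

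Both Cryptochrome genes, which encode the main repressors of the loop, had lower values in DMEM/F12. Cry1 had 5.84 in DMEM against 5.72 in DMEM/F12 (cluster 10371400), a difference of -0.12 at the 27.6th percentile of all genes. Cry2 had 6.05 in DMEM against 5.63 in DMEM/F12 (cluster 10485170), a difference of -0.42. This was 1.34-fold lower, at the 3.0th percentile, and Cry2 was the only clock gene at least 1.2-fold lower. The Cryptochrome genes thus lay on the other side of 0 from Per1 and Per3. Cry1 and Per1 were the genes with an E-box in a promoter window, and their differences were -0.12 and 0.22.

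The REV-ERB genes of the second loop differed in opposite directions. Nr1d1 had 6.84 in DMEM against 6.70 in DMEM/F12 (cluster 10390691), a difference of -0.14 at the 24.9th percentile. Nr1d2 had 5.78 in DMEM against 6.26 in DMEM/F12 (cluster 10417734). Its difference of 0.48 (1.39-fold) lay at the 97.9th percentile and was the largest in size among the 10 clock genes. The differences of these paralogs were 0.62 apart, against 0.30 for the Cryptochrome pair. Arntl, the gene that both REV-ERB proteins repress, differed by -0.01, as given above. Among the ROR genes, which encode activators that compete for the same elements, Rora, near background, had 4.47 in DMEM against 4.69 in DMEM/F12. Rorb was below background on both arrays (3.61 and 3.46).

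**Figure D3:**
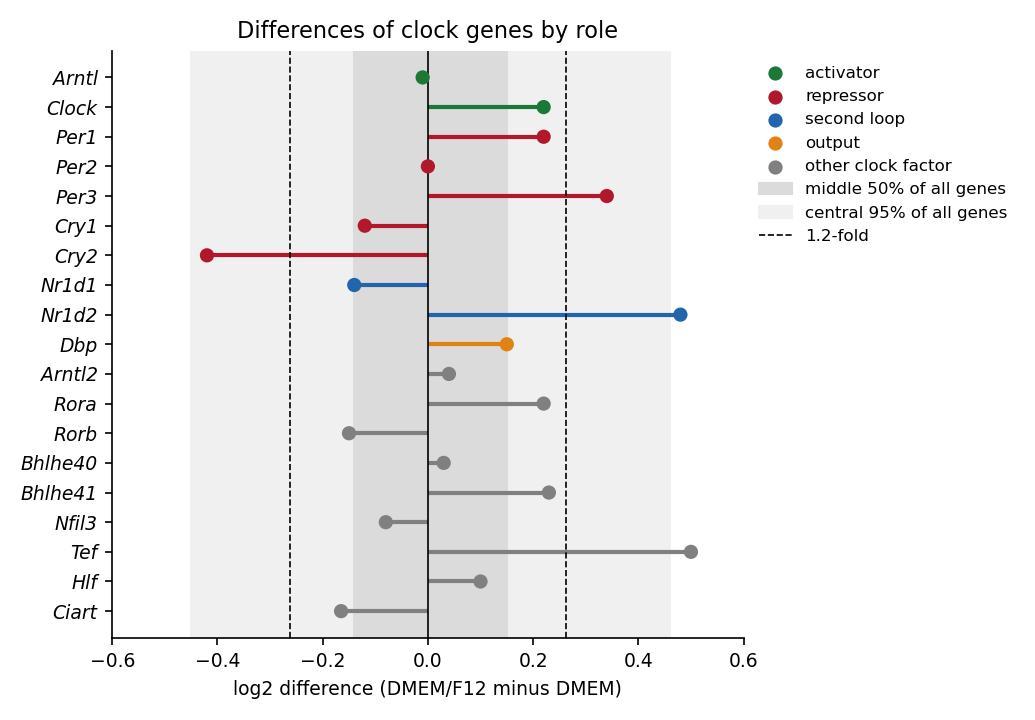
Differences on the log2 scale (x axis, DMEM/F12 minus DMEM) of the 10 clock genes, coloured by role, and of 9 other transcription factors of the clock (gray). Each dot is 1 gene, shaded bands span the middle 50% and the central 95% of all genes, and dashed lines mark 1.2-fold; Nr1d2 at 0.48 and Tef at 0.50 lie just outside the central 95%, and Cry2 at -0.42 just inside it.

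Dbp, a direct target of CLOCK and BMAL1 and the classic output factor of the clock, had 6.20 in DMEM against 6.35 in DMEM/F12 (cluster 10553092). Its difference of 0.15 was at the 74.8th percentile. Tef and Hlf encode the other members of its family, which bind the same D-boxes. Tef had 5.45 in DMEM against 5.95 in DMEM/F12, a difference of 0.50 at the 98.2nd percentile, and Hlf, near background, had 4.44 and 4.54. All 3 family members were thus higher in DMEM/F12, as were 47.2% of all genes, and Tef was the only one past 1.2-fold. Nfil3, which represses through D-boxes, had 7.20 in DMEM against 7.12 in DMEM/F12, a difference of -0.08.

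The remaining transcription factors of the clock lay within 1.2-fold. Bhlhe40 (DEC1), which competes for E-boxes, had 8.50 in DMEM against 8.53 in DMEM/F12, and its paralog Bhlhe41 (DEC2) had 7.70 and 7.93. Arntl2, the paralog of Arntl, was below background on both arrays (2.64 and 2.68), and Npas2, the paralog of Clock, had no cluster with a single symbol. Ciart (CHRONO), a repressor of the CLOCK and BMAL1 pair, was paired with 2 clusters whose differences were -0.32 and -0.01, with a mean of -0.17. Whether both clusters measure Ciart cannot be told from the annotation used here. Of the 11 genes in this list 9 were measured and 7 were above background. Values in DMEM/F12 were above those in DMEM for 6 and below them for 3, against 47.2% and 45.5% of all genes. The median was 0.04, and Tef was the 1 gene of the 9 past 1.2-fold, against 21.7% of all genes.

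**Figure D4:**
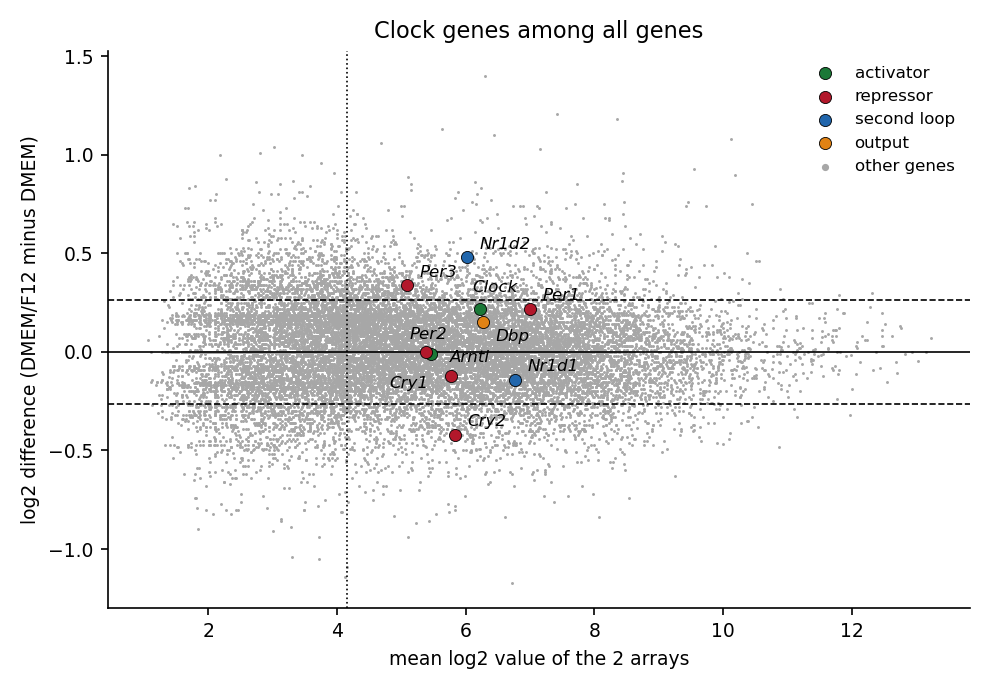
Differences on the log2 scale (y axis, DMEM/F12 minus DMEM) plotted over the mean log2 level (x axis) for all 19938 genes (gray dots) and the 10 clock genes (coloured by role and named). Dashed lines mark 1.2-fold and the dotted line background; the clock genes lie at middle signal levels, with Nr1d2 and Per3 above the upper line and Cry2 below the lower one.

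Kinases and ubiquitin ligases that set the stability of the clock proteins were listed together with cofactors of the loop. Of the 22 genes 19 were measured, 8 higher and 10 lower in DMEM/F12, with a median of -0.02. Over all genes 47.2% were higher and 45.5% lower. Past 1.2-fold was 1 of the 19, where 21.7% of all genes were. Prkaa2, the α2 catalytic subunit of the energy sensor AMPK, which marks CRY1 for degradation, was that gene. It had 7.00 in DMEM against 7.65 in DMEM/F12, a difference of 0.65 at the 99.4th percentile, while Prkaa1, the α1 subunit, had 8.58 and 8.65. The next largest difference above background was that of Fbxw11 (β-TrCP2), a ubiquitin ligase subunit of the PER proteins, with 7.87 in DMEM against 7.64 in DMEM/F12. The casein kinase 1 genes Csnk1d and Csnk1e, whose products phosphorylate PER and set its lifetime, differed by -0.10 and 0.20.

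Genes read out by the clock showed no common direction. Of 10 output genes 9 were measured, 3 higher and 6 lower, with a median of -0.08. Over all genes 47.2% were higher and 45.5% lower. Past 1.2-fold were 2 of the 9, a count close to the 21.7% of all genes past it. Klf10, a transcription factor under control of CLOCK and BMAL1, had 6.16 in DMEM against 6.56 in DMEM/F12, and Avp, the vasopressin gene, had 5.02 and 5.25. Nampt, the enzyme of NAD salvage, and Wee1, a kinase that holds back mitosis, differed by -0.13 and -0.08. Klf10 was the only output gene above background past 1.2-fold; Cyp7a1 was also past it, with a difference of 0.39, but lay below background on both arrays. Of 5 macrophage genes that REV-ERB proteins are known to repress, 4 were measured. The chemokine gene Ccl2 had 7.81 in DMEM against 7.23 in DMEM/F12, a difference of -0.58, whereas the protease gene Mmp9 had 4.63 and 4.99, a difference of 0.36. Cx3cr1, the fractalkine receptor, differed by -0.08, and Il6 was below background on both arrays. The median of these 4 genes was 0.14, and it was -0.08 over the 3 above background.

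**Figure D5:**
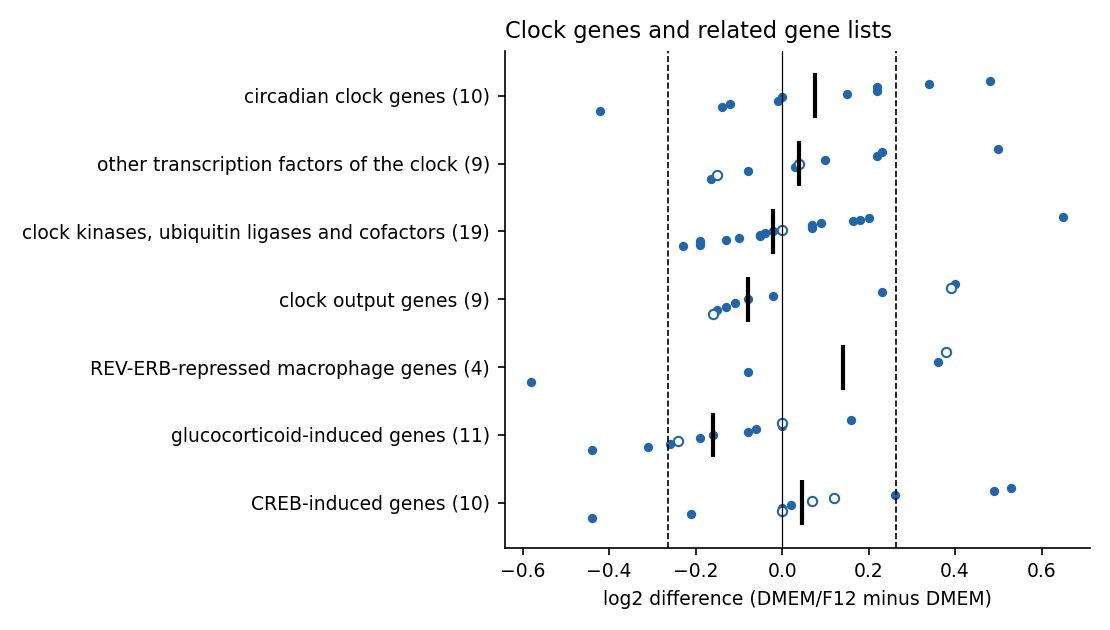
Differences on the log2 scale (x axis, DMEM/F12 minus DMEM) for each gene in 7 lists (y axis, with the measured number after each name). Each dot is a gene, filled where the gene was above background on at least 1 array and open where it was not, black bars are list medians, and dashed lines mark 1.2-fold; the medians lie between -0.16 and 0.14.

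The identity of the cells was checked with markers. Of 11 measured genes of microglia and macrophages 9 were above background, among them Cd68 (11.10 in DMEM against 11.21 in DMEM/F12), Tyrobp (11.13 and 11.17) and Spi1 (10.34 and 10.30), while Aif1 and P2ry12 were not. Of these 11 genes 5 were above and 5 below their DMEM value in DMEM/F12, with a median difference of 0.00. Over all genes 47.2% were above and 45.5% below. Past 1.2-fold higher was 1 of the 11, Trem2, with 9.23 in DMEM against 9.63 in DMEM/F12. Past it in the other direction were 3, Tmem119 (6.71 and 6.05), Csf1r (8.79 and 8.47) and Aif1 (3.53 and 3.14, below background). Over all genes 11.2% were past this limit higher and 10.5% lower. The highest values among the markers of neurons, astrocytes and oligodendrocytes were 4.49, 4.42 and 5.09 in DMEM and 4.65, 4.59 and 5.05 in DMEM/F12. Above background were 1 of 4 markers of neurons, 1 of 4 of astrocytes, 2 of 3 of oligodendrocytes and 3 of 4 of fibroblasts. Among fibroblast markers, Col1a1 reached 6.06 in DMEM against 5.93 in DMEM/F12, and Col1a2 had 5.39 and 5.28. The part of these differences in the values of the clock genes was not tested.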

How the data were processed

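Total RNA of BV2 cells from 1 culture per medium was hybridized to Affymetrix Mouse Gene 1.0 ST arrays. The authors deposited log2 values with 2 decimals for 28944 transcript clusters. Affymetrix Expression Console and Transcriptome Analysis Console are named in the methods and the submitters' processing notes, while the sources used here do not state how probes were summarized, how arrays were normalized, or which genome build was used. Array medians were 4.75 in DMEM and 4.77 in DMEM/F12. The number of arrays limits the precision.

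Samples were grouped by the submitters' labels. The 21789 clusters with exactly 1 symbol were averaged per gene, and 1621 clusters with several symbols and 5534 with none were left out. No filter or further scaling was applied. All 10 symbols matched RefSeq by Entrez number. Counts used a 1.2-fold limit, beside the same count over all genes. This limit was chosen because few genes on these arrays passed 1.5-fold or 2-fold, so it was set with these data known. The clock genes, the 6 other lists and the rule for naming genes were chosen with earlier results of these data known. The rule names all clock genes and clock transcription factors, and in each other list the 2 most different genes among those above background. Added after their values were seen were Csnk1d, Csnk1e, Prkaa1, Nampt, Wee1, Cx3cr1, Cyp7a1, Il6, Klf9, Dusp1, Fkbp5, Fos, Junb and Nr4a2. The named cell type markers were also added in this way. Protein identities of paralogs, planned at first, were not computed. Alternatives were 3 scalings (median centring, quantile normalization, and a loess curve with span 0.3), a floor at background, the brightest cluster per gene, clusters with several symbols, only genes above background, and limits of 1.5-fold and 2-fold. Python 3.11.15 with numpy 2.4.6, pandas 2.3.3 and statsmodels 0.14.6 was used. The steps were tested on simulated data with shifts larger than any clock gene difference, so recovery of differences near 1.2-fold was not tested.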

Additional observations from a re-analysis of the deposited data

How the results depend on the processing

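With no replicates, shifts above 0.1 on the log2 scale, and changes of a count above 1.5 times, were treated as moved. The differences of the 10 clock genes shifted by at most 0.02 under the 6 alternatives applied to them. The numbers past 1.2-fold stayed at 2 higher and 1 lower under every scaling and background setting. With quantile normalization 6 were higher and 3 lower, and with median centring or loess scaling 5 were lower. These changes, too small to count as moved, came from Arntl and Per2, whose differences were -0.01 and 0.00. Since all 10 lie above background and have 1 cluster each, the settings on dim values and on clusters could not change their differences. At limits of 1.5-fold and 2-fold, 0 clock genes were higher and 0 lower. For the list of genes repressed by REV-ERB proteins the median of 0.14 became -0.08 with only genes above background and -0.03 with values raised to background, so that its sign changed under both, and Il6 lies below background. No other list median moved. Of 217 values of the lists under the alternatives 12 moved, both of these medians included. Among the counts, Ciart was past 1.2-fold lower with its brightest cluster. Whether both of its clusters measure that gene cannot be told, as given above. The 2 lower CREB-induced genes became 4 with median centring. The 1 higher glucocorticoid-induced gene became 2 with quantile or loess scaling and 3 with values raised to background. No paired analysis was possible because there is a single array in each medium.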

Other observations

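Per1 is induced by glucocorticoids and by cyclic AMP signalling through CREB, so other genes of these inputs were set beside it. Of 11 glucocorticoid-induced genes 8 were lower in DMEM/F12, 1 was higher and 2 were equal. The median difference was -0.16, where 45.5% of all genes were lower. Of the 11 genes 9 were above background, with 7 of these lower, 1 higher and a median of -0.16. With values raised to background the median over all 11 was -0.08. Tsc22d3 (GILZ), a mediator of the anti-inflammatory action of glucocorticoids, had 5.26 in DMEM against 4.82 in DMEM/F12, and Zbtb16 had 5.95 and 5.64; these 2 of 11 were past 1.2-fold lower, where 10.5% of all genes were. Fkbp5, a chaperone of the glucocorticoid receptor, had 6.12 and 5.86, just inside that limit. The higher gene was Klf9, which differed by 0.16. Per1 itself differed by 0.22, also inside that limit. Whether either input had a part in the value of Per1 was not tested.

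Of 10 CREB-induced genes 6 were higher and 2 lower in DMEM/F12, with a median of 0.05, where 47.2% of all genes were higher and 45.5% lower. With each array centred on its median, 5 were higher and 4 lower. Of the 10 genes 7 were above background, with 4 of these higher, 2 lower and a median of 0.02. The orphan nuclear receptor gene Nr4a1 had 6.88 in DMEM against 7.41 in DMEM/F12 and the immediate early gene Egr1 had 5.16 and 5.65, while Nr4a2, a paralog of Nr4a1, had 5.12 and 4.68. Past 1.2-fold higher were 2 of the 10, Nr4a1 and Egr1, where 11.2% of all genes were. Past it lower was 1, Nr4a2, where 10.5% were. Junb differed by 0.26, just inside the limit, and Fos, the other lower gene, had 4.76 in DMEM against 4.55 in DMEM/F12. Dusp1, which both lists hold, had 6.27 in both media.

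Genes whose RefSeq promoter window held a clock motif were also counted, a comparison chosen after the values of the clock genes were seen. Of 377 measured genes with a D-box, 11.7% were at least 1.2-fold higher in DMEM/F12 and 11.7% at least 1.2-fold lower. For 1483 genes with an E-box these shares were 9.44% and 10.1%, for 886 genes with an E′-box 11.3% and 9.48%, and for 424 genes with a cyclic AMP response element 8.96% and 8.73%. These lie close to the shares of all genes, 11.2% and 10.5%. The medians of these 4 groups were 0.00. Of 52 genes with a ROR element, 8 (15.4%) were higher past the limit and 12 (23.1%) lower, with a median of -0.01 and few genes behind these shares.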
